A study of Mus musculus with 8 samples.

Results

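The FOXO and KLF2 axis of lymphocyte egress and homing was followed through 8 genes, of 18193 genes represented on the arrays. They were the forkhead factor genes Foxo1, Foxo3 and Foxp1, the zinc finger factor gene Klf2, the receptor genes S1pr1 and Il7r, and the surface protein genes Cd69 and Cd44. The genes were taken by name, with all 24 probe sets, of 45101, that the platform annotation assigns to exactly 1 of these symbols. The probe set with the highest mean over all arrays stood for its gene. When Ikaros activity was induced, Foxo1, Klf2 and Cd44 rose, while Foxo3, Foxp1, S1pr1, Il7r and Cd69 were not called. For none of the 8 was the response called different from that of vector control cells in the direct test. Only Cd44 kept its call whichever array was omitted.

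FOXO factors are held in the cytoplasm when the PI3K-AKT pathway phosphorylates them, and act in the nucleus when that pathway is quiet. In maturing thymocytes and naive T cells FOXO1 promotes transcription of Klf2 and Il7r, and KLF2 in turn promotes transcription of S1pr1, whose protein senses sphingosine 1-phosphate (S1P) in blood and lets cells leave the thymus and lymph nodes. CD69, an early activation marker, binds S1PR1 and removes it from the surface, FOXP1 opposes FOXO1 at Il7r, and CD44 is a receptor for hyaluronan that marks early progenitors and activated T cells.

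The cells were T29, a line from a thymic lymphoma of the mouse. The submitters call it deficient in Ikaros, the zinc finger transcription factor encoded by Ikzf1. There were 4 groups of 2 arrays: cells transduced with MigR1-Ik1ER, carrying an Ikaros protein whose activity 4-hydroxytamoxifen (4OHT) induces, under 4OHT or ethanol, and cells transduced with the MigR1 retroviral vector, under 4OHT or ethanol. All groups were thus transduced T29 cells, 4OHT was given at 100 nM, and both treatments lasted 24 h. The labels do not say whether the transduced lines were clones or pools, or whether both arrays of a group hold RNA of separate cultures, so p-values measure a spread between arrays that may be technical.

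Values are log2 expression, and the number of arrays limits their precision. An Ikzf1 probe set read 10.45 to 11.27 on the Ik1ER arrays against 8.12 to 8.51 on the MigR1 arrays, while a second one read 9.97 to 10.44 against 10.20 to 10.36. Of the T cell markers 10 of 10 measured had a mean above 5.27, the highest mean among 27 probe sets for Bacillus control transcripts, used here as the mark of background, as did 2 of 5 B cell, 3 of 6 myeloid, 2 of 4 cytotoxic, 2 of 3 erythroid and 0 of 6 stromal and epithelial markers. The mean over the T cell markers was 10.85 to 11.38 on single arrays. With 4OHT in Ik1ER cells 3 T cell markers were called higher and 3 lower, 2 cytotoxic markers higher, and 1 myeloid marker higher and 2 lower; their part in the results below was not tested. The Ik1ER arrays numbered 2 differed from the rest: transferrin receptor signal was higher at the 3′ than at the 5′ end by 1.91 in 4OHT and 1.66 in ethanol, against 1.16 to 1.39 on the 6 other arrays, and results are therefore also given without both. Each Ik1ER group is then 1 array, the spread comes from the MigR1 arrays alone, and the lone arrays are assumed to vary like them, so these p-values do not measure the spread of Ik1ER cells. Where 1 array is omitted, the one left in its group is likewise assumed to vary like the other groups.

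The first comparison, 4OHT against ethanol in Ik1ER cells, asks which genes respond to induced Ikaros activity. A gene was called when its p from limma, adjusted (Benjamini-Hochberg) over all 18193 genes, was under 0.05. Of the 8 genes 3 were called, all higher, against 5.35% of all genes called in either direction and 2.84% called higher. The 8 genes were chosen with earlier results of these data known. An excess over the share of all genes, here and below, may therefore come from the choice and is no test of the set. Both arrays in 4OHT lay on 1 side of both in ethanol for 6 of the 8, against 42.7% of all genes. The median log2 fold change of the 8 was 0.33, against -0.0039 over all genes. In RNA of whole cultures, more cells that transcribe a gene and more RNA per cell cannot be told apart.

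Promoter sequences of the 3 genes that rose are printed first, since they are the stretches next to the transcripts that changed together. They are the 250 bases before the RefSeq start on GRCm38.p6, 5′ to 3′ on the strand of the gene. Capitals mark matches, on either strand, to GTAAACA (a FOXO motif), TGGGAA (an Ikaros motif) or CACCC (a KLF motif).
Foxo1 promoter, chr3:52268087-52268336, plus strand: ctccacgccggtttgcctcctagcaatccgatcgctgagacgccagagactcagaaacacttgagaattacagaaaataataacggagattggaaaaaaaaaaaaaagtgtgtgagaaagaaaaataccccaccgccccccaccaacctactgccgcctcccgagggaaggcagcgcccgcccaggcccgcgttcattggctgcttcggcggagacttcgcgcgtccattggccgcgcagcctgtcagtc
Klf2 promoter, chr8:72318812-72319061, plus strand: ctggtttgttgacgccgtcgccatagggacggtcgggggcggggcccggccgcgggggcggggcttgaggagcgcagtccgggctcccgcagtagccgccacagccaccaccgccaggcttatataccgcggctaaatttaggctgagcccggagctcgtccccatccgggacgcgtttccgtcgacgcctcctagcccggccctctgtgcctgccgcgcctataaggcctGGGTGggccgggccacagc
Cd44 promoter, chr2:102901666-102901915, minus strand: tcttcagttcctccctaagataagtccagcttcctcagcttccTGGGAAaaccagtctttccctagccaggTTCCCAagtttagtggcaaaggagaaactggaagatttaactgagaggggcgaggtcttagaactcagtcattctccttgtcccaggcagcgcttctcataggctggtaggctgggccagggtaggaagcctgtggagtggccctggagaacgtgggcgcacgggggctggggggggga

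The window of Foxo1 held none of the 3 motifs, that of Klf2 held 1 CACCC match, 15 to 19 bases before the start, and that of Cd44 held 2 TGGGAA matches, which begin 207 and 179 bases before the start. Among 32851 promoter windows of the same length, 52% held CACCC, 21.6% held TGGGAA and 3.17% held GTAAACA. Promoters of 6 of the 8 genes were matched by symbol, 8 windows in all. No window of Foxo3 or Il7r held any of the motifs, and 2 of the 3 windows of Foxp1 held CACCC only. These matches describe letters in the windows and are not sites of binding.

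Foxo1 encodes the FOXO factor that dominates in T cells, and it rose in Ik1ER cells. It read 8.58 and 9.07 in Ik1ER cells in 4OHT, against 7.85 and 7.98 in Ik1ER cells in ethanol. On the MigR1 arrays it read 7.78 and 7.63 in 4OHT and 7.86 and 7.83 in ethanol. Both Ik1ER 4OHT arrays thus lay above all 6 others, an order whose share among all genes was not counted. The rise was 0.91 (SE 0.15, limma, adjusted p = 0.0124), or 1.88-fold. Its 95% confidence interval was 0.57 to 1.25.

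The other probe sets of Foxo1 allow a check within the gene. In Ik1ER cells a second one averaged 8.36 ± 0.08 with 4OHT and 7.30 ± 0.09 with ethanol (SD, n = 2 each), a rise of 1.06 (SE 0.13, limma, adjusted p = 0.00769 over all probe sets). Another read 7.66 ± 0.15 and 6.79 ± 0.05, a rise of 0.87 (SE 0.10, limma, adjusted p = 0.00559 over all probe sets). The last one, with a mean of 5.05, lay below the highest Bacillus control mean and differed by -0.11 (not called). The call of the standing probe set was lost without Ik1ER ethanol replicate 1 (0.84, limma, adjusted p = 0.0795) and without Ik1ER ethanol replicate 2 (0.98, limma, adjusted p = 0.0531). It was also lost with the 4 Ik1ER arrays alone (limma, adjusted p = 0.0649), and without both replicate 2 arrays, with the spread taken from MigR1 cells, the difference was 0.73 (limma, adjusted p = 0.0419).

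Foxo3, the close relative of Foxo1 with an overlapping set of targets, was not called. Its standing probe set read 10.00 and 10.34 in Ik1ER cells in 4OHT, against 9.88 and 10.18 in Ik1ER cells in ethanol. The MigR1 arrays lay between 9.96 and 10.11, within the range of the Ik1ER arrays. The difference in Ik1ER cells was 0.14 (95% confidence interval -0.18 to 0.45, limma, adjusted p = 0.697). The other 2 probe sets differed by 0.25 and 0.13 and were not called either.

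Foxp1, which helps to keep naive T cells quiescent, had 8 probe sets, all with means above the highest Bacillus control mean. The standing one read 9.71 and 10.17 in Ik1ER cells in 4OHT, against 9.66 and 9.86 in ethanol, so that the groups overlapped. The difference was 0.18 (95% confidence interval -0.18 to 0.54, limma, adjusted p = 0.647). The differences of the 8 probe sets ran from 0.09 to 0.59 and none was called. The largest came from the dimmest, at 5.82 ± 0.37 in 4OHT and 5.23 ± 0.31 in ethanol for Ik1ER cells (SD, n = 2 each), but 5.78 ± 0.03 and 5.90 ± 0.36 in MigR1 cells in 4OHT and ethanol.

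Klf2, which maintains quiescence and homing receptor transcription, rose and read near background. It read 5.84 and 5.60 in Ik1ER cells in 4OHT, against 5.26 and 5.22 in Ik1ER cells in ethanol. In MigR1 cells it read 5.06 and 5.17 in 4OHT and 5.27 and 5.27 in ethanol. The Ik1ER 4OHT arrays were the only ones clearly above the highest Bacillus control mean of 5.27, so the size of the change may be compressed. The rise was 0.48 (SE 0.09, limma, adjusted p = 0.0245), or 1.39-fold, from its 1 probe set. The call was lost without Ik1ER 4OHT replicate 1, either Ik1ER ethanol array or either MigR1 ethanol array (limma, adjusted p at most 0.132), and without both Ik1ER replicate 2 arrays (0.58, limma, adjusted p = 0.0561). It was also lost with the Ik1ER arrays alone (limma, adjusted p = 0.109) and on the scale of all probe sets (limma, adjusted p = 0.0511).

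**Figure D1:**
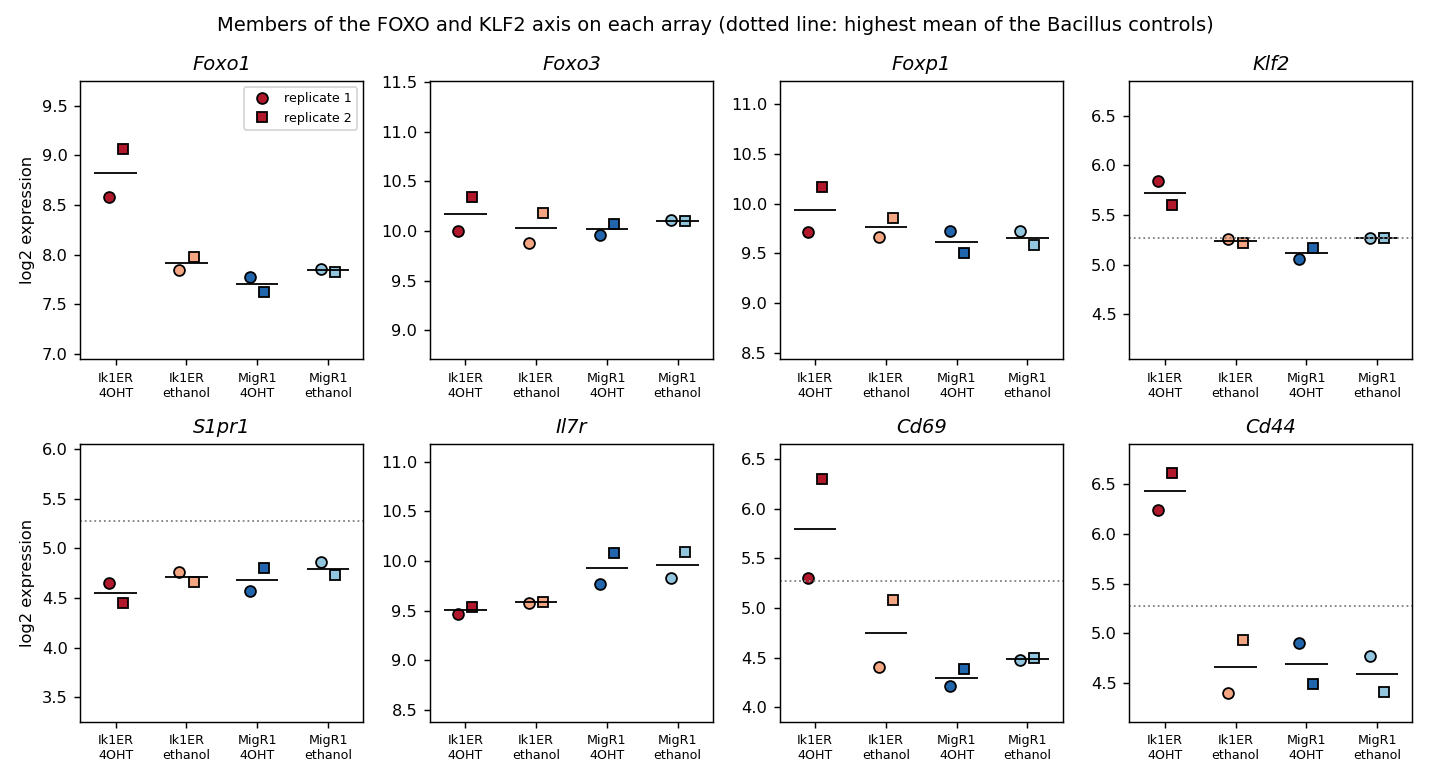
Log2 expression of the standing probe set of each gene on every array, with circles for replicate 1, squares for replicate 2 and a bar at the mean of each group of 2 arrays; each panel spans the same number of log2 units, and the dotted line is the highest Bacillus control mean. Foxo1, Klf2, Cd69 and Cd44 are highest on both Ik1ER 4OHT arrays, and Il7r is lower on the 4 Ik1ER arrays than on the 4 MigR1 arrays.

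S1pr1, the S1P receptor needed for exit from the thymus, was not called and read near background. It read 4.65 and 4.45 in Ik1ER cells in 4OHT, against 4.76 and 4.66 in ethanol, and 4.57 to 4.86 in MigR1 cells. All 8 values lay below the highest Bacillus control mean. The difference in Ik1ER cells was -0.16 (95% confidence interval -0.41 to 0.09, limma, adjusted p = 0.544), so no rise beside that of Klf2 was detectable in this probe set.

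Il7r encodes the alpha chain of the receptor for interleukin 7, a survival cytokine of thymocytes and naive T cells, and was bright. It read 9.47 and 9.54 in Ik1ER cells in 4OHT, against 9.58 and 9.59 in Ik1ER cells in ethanol. It read 9.77 and 10.08 in MigR1 cells in 4OHT, and 9.83 and 10.09 in MigR1 cells in ethanol. The 4 Ik1ER arrays all lay below the 4 MigR1 arrays, whatever the treatment. The share of all genes with this separation was not counted. Within a single treatment the lines did not overlap for 37.5% of all genes in ethanol and 44.7% in 4OHT. The effect of 4OHT in Ik1ER cells was -0.08 (95% confidence interval -0.36 to 0.20, limma, adjusted p = 0.818). The second probe set, at 7.91 to 8.06 in Ik1ER cells and 8.20 to 8.57 in MigR1 cells, differed by -0.05 between the treatments in Ik1ER cells.

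Cd69 varied more between replicates of the Ik1ER groups than the other 7 genes did. It read 5.30 and 6.30 in Ik1ER cells in 4OHT, against 4.41 and 5.08 in Ik1ER cells in ethanol. In MigR1 cells it read 4.21 and 4.39 in 4OHT and 4.48 and 4.50 in ethanol. Within each Ik1ER group the replicate 2 array, which stood apart in its control probe sets, was the higher one. The difference of 1.06 (SE 0.31, 95% confidence interval 0.34 to 1.78) was not called (limma, adjusted p = 0.111). Cd69 passed the threshold with the replicate number as a block (limma, adjusted p = 0.0363). It also passed in 2 fits that leave 1 array in a group, without Ik1ER 4OHT replicate 1 (1.55, limma, adjusted p = 0.0236) and without both Ik1ER replicate 2 arrays (0.90, limma, adjusted p = 0.0279). The second takes its spread from MigR1 cells, where the SD of Cd69 was 0.12 in 4OHT and 0.01 in ethanol, against 0.70 and 0.48 in Ik1ER cells, and neither shows that the difference exceeds the spread of Ik1ER cells.

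Cd44 rose in Ik1ER cells. It read 6.24 and 6.62 in Ik1ER cells in 4OHT, against 4.40 and 4.93 in Ik1ER cells in ethanol. In MigR1 cells it read 4.90 and 4.49 in 4OHT and 4.77 and 4.41 in ethanol. The 6 arrays without induced Ikaros activity lay below the highest Bacillus control mean and both Ik1ER 4OHT arrays above it. The rise was 1.76 (SE 0.22, limma, adjusted p = 0.00451), or 3.40-fold, and its size may be compressed by the low starting value. A second probe set read 6.15 ± 0.30 in 4OHT and 4.42 ± 0.14 in ethanol in Ik1ER cells (SD, n = 2 each), a rise of 1.73 (SE 0.23, limma, adjusted p = 0.0100 over all probe sets). The other 2, with means of 3.98 and 3.16, differed by 0.36 and 0.06 and were not called. Of the 8 genes only Cd44 kept its call in all 8 fits with 1 array omitted (limma, adjusted p at most 0.0263).

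**Figure D2:**
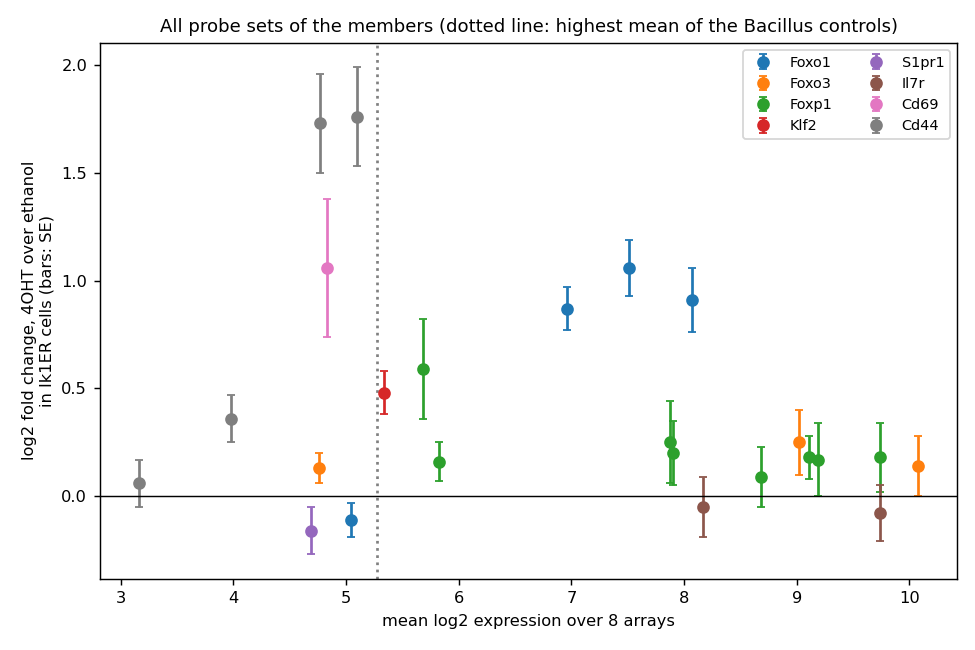
Log2 fold change of 4OHT over ethanol in Ik1ER cells (vertical axis, bars are standard errors from limma) against the mean log2 expression over 8 arrays (horizontal axis) for each of the 24 probe sets. The 3 brighter probe sets of Foxo1 lie between 0.87 and 1.06 and the 8 of Foxp1 between 0.09 and 0.59, while the 4 of Cd44 lie left of the dotted line of the Bacillus controls.

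In MigR1 cells, 4OHT against ethanol shows what the inducer does without Ik1ER. None of the 8 genes was called, and 0.0055% of all genes were. None of the 8 had an unadjusted p under 0.05 by limma, against 386 of all genes. For 4 of the 8 both 4OHT arrays lay on 1 side of both ethanol arrays, against 29.8% of all genes. The differences ran from -0.19 for Cd69 to 0.10 for Cd44, with a median of -0.098, against 0.0069 over all genes. Of the 8, 7 lay below 0, while 53.8% of all genes lay above 0. The 95% confidence intervals of Foxo1 (-0.49 to 0.20), Klf2 (-0.37 to 0.06) and Cd44 (-0.41 to 0.62) did not reach the rises of 0.91, 0.48 and 1.76 measured in Ik1ER cells. This leaves out the error of those rises, and the genes were picked by their calls, so it is no test of a difference between the lines.

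The difference between the 4OHT effects of both lines was tested directly. It was 1.05 for Foxo1 (SE 0.21, adjusted p = 0.0673), 0.63 for Klf2 (SE 0.13, adjusted p = 0.0736) and 1.66 for Cd44 (SE 0.32, adjusted p = 0.0553) by limma. For Cd69 it was 1.25 (SE 0.44, limma, adjusted p = 0.314). None of the 8 was called by limma, against 1.26% of all genes (0.621% higher and 0.638% lower), while 4 of 8 had an unadjusted p under 0.05. The other 4 genes differed by -0.05 to 0.23. That the response to 4OHT differs between the lines was therefore not shown at this threshold for any of the 8, although Foxo1, Klf2 and Cd44 passed it under some alternatives. With adjustment over all probe sets, a dimmer Foxo1 probe set was called (0.98, SE 0.14, limma, adjusted p = 0.0381). The standing one was not (limma, adjusted p = 0.128), nor was the next brightest (limma, adjusted p = 0.0645). Foxo1 passed the threshold with the mean over its 4 probe sets (0.74, limma, adjusted p = 0.0238) and with trend and robust settings (limma, adjusted p = 0.0246). Cd44 passed it in both settings too (limma, adjusted p = 0.0479 and 0.0282). Without Ik1ER 4OHT replicate 2, Klf2 (0.75, limma, adjusted p = 0.0311) and Foxo1 (0.80, limma, adjusted p = 0.0418) passed it, and without Ik1ER 4OHT replicate 1 Foxo1 did (1.30, limma, adjusted p = 0.0136), with 1 array left in that group.

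**Figure D3:**
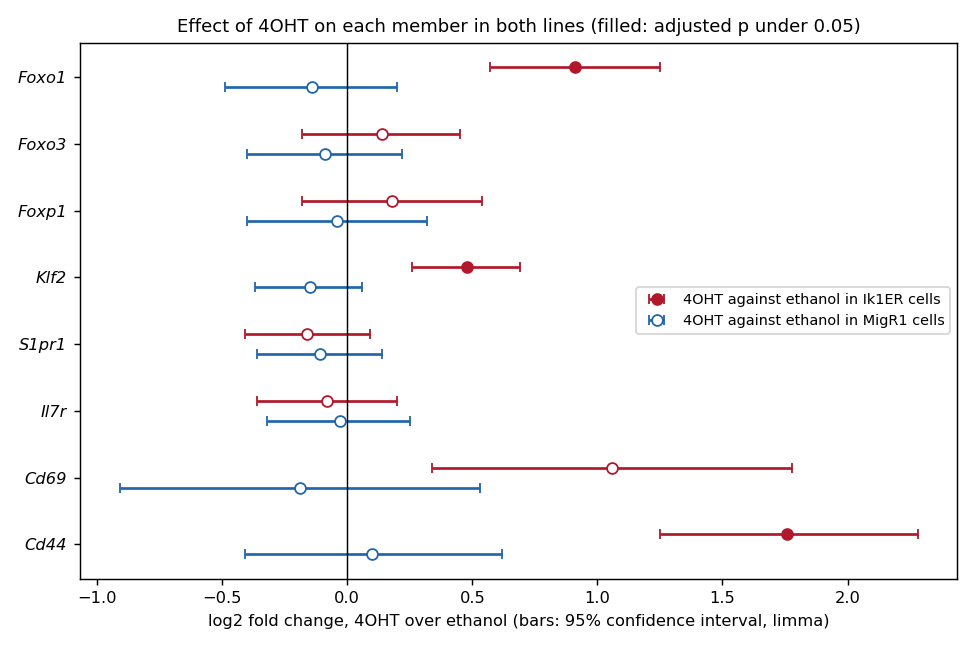
Log2 fold change of 4OHT over ethanol for each gene in Ik1ER cells (red) and MigR1 cells (blue), with 95% confidence intervals from limma; filled points were called. Foxo1, Klf2 and Cd44 are filled in Ik1ER cells, and no point is filled in MigR1 cells.

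Between the lines in ethanol, which asks for an effect of Ik1ER without inducer, none of the 8 genes and 0% of all genes were called by limma. Of all genes 955 had an unadjusted p under 0.05, and of the 8 only Il7r had. Il7r averaged 9.58 ± 0.01 in Ik1ER cells and 9.96 ± 0.18 in MigR1 cells in ethanol (SD, n = 2 each), a difference of -0.38 (SE 0.12, limma, adjusted p = 0.92). The other 7 genes differed by -0.09 to 0.25. In 2 of the 8 the lines did not overlap, against 37.5% of all genes.

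Between the lines in 4OHT, 4 of the 8 genes were called, all higher in Ik1ER cells, against 5.1% of all genes called (2.92% higher and 2.18% lower). In 5 of the 8 the lines did not overlap, against 44.7% of all genes. This comparison shares its Ik1ER 4OHT arrays with the first one, so the results are not independent of each other. Foxo1 was higher by 1.12 (SE 0.15, limma, adjusted p = 0.00600), Klf2 by 0.60 (SE 0.09, limma, adjusted p = 0.0101) and Cd44 by 1.74 (SE 0.22, limma, adjusted p = 0.00524). Cd69 was called here, at 5.80 ± 0.70 in Ik1ER cells and 4.30 ± 0.12 in MigR1 cells (SD, n = 2 each), a difference of 1.5 (SE 0.31, limma, adjusted p = 0.0335). Il7r differed by -0.42 (SE 0.12, limma, adjusted p = 0.108), with a like difference of -0.41 in its second probe set. Foxp1 differed by 0.33, Foxo3 by 0.16 and S1pr1 by -0.14, and none of these was called. Foxo1 lost its call without MigR1 4OHT replicate 2 (limma, adjusted p = 0.0591), Klf2 without either MigR1 4OHT array (limma, adjusted p at most 0.0848) and Cd69 without Ik1ER 4OHT replicate 2 or any MigR1 array (limma, adjusted p at most 0.173). Without both Ik1ER replicate 2 arrays 4 genes were called, with 1 Ik1ER array in 4OHT and the spread taken from MigR1 cells.

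In the order of group means, Foxo1, Klf2, Cd69 and Cd44 were highest in Ik1ER cells in 4OHT, with both arrays above those of the next group. Below that, the Ik1ER ethanol and MigR1 ethanol groups of Foxo1 and Cd69 overlapped, as did the 3 lower groups of Cd44. The lower groups of Klf2 followed each other by 0.03 and 0.13. All neighbouring groups of Foxo3, Foxp1 and S1pr1 overlapped. Il7r was highest in MigR1 cells, whose treatments overlapped, and the step of 0.34 down to the Ik1ER cells exceeded the larger SD of 0.22. The share of all genes with such orders was not counted, so the orders do not set these genes apart. Separation of a single pair of groups was common. The treatments did not overlap in Ik1ER cells for 42.7% of all genes, nor the lines in 4OHT for 44.7%.

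The genes whose values ran most like those of Foxo1 over the 8 arrays were Arvcf, Mlf1 and Ankrd44, among 10460 candidates brighter than the median probe set. Here and for Klf2 below, such genes were picked by their values on these same arrays. A rise shared with Foxo1 or Klf2 therefore follows from the choice and is no separate result. Likeness was the root mean square difference of log2 values after each gene was centred on its own mean, which was 0.0683 for Arvcf, 0.0936 for Mlf1 and 0.101 for Ankrd44, while Foxo1 itself spanned 1.44. Ankrd44, which encodes an ankyrin repeat protein, averaged 10.40 with 4OHT and 9.37 with ethanol in Ik1ER cells, Arvcf, which encodes a catenin family member, 7.28 and 6.35, and Mlf1 6.34 and 5.44. For Klf2, which spanned 0.776, they were Dnajb4, which encodes a heat shock protein 40 family chaperone (0.0540), the mitochondrial carrier gene Slc25a14 (0.0584) and Pipox, which encodes pipecolic acid oxidase (0.0664). Dnajb4 averaged 10.23 with 4OHT and 9.69 with ethanol in Ik1ER cells, and its other 2 probe sets above background differed by 0.47 and -0.01 and were not called. Those of Arvcf, also 2, differed by 0.68 and 0.46 and were not called either.

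The surroundings of the axis were described through 9 lists, also chosen with earlier results of these data known, holding 104 measured genes. With 4OHT in Ik1ER cells 15 of them rose and 2 fell, against 2.84% of all genes called higher and 2.51% called lower. Their median log2 fold change was 0.066, against -0.0039 over all genes. In MigR1 cells, and between the lines in ethanol, limma called none of the 104. The 4OHT effects of the lines differed for 3 (Inpp5d, Itgae and Socs1, all higher in Ik1ER cells), and between the lines in 4OHT 16 were higher and 2 lower in Ik1ER cells. Outside the Ik1ER 4OHT group, Itgae averaged below the highest Bacillus control mean. Without both Ik1ER replicate 2 arrays, an alternative chosen after seeing the data, 6 were called higher and 0 lower, with 1 array in each Ik1ER group and the spread taken from MigR1 cells. Of the 17 called genes Inpp5d, Rac2, Itgb2 and Socs1 kept their calls in all 8 fits with 1 array omitted, and of these Rac2 was not called without both replicate 2 arrays (limma, adjusted p = 0.0537).

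Among 14 genes of the PI3K-AKT pathway, which keeps FOXO factors out of the nucleus, 2 rose and 1 fell (median 0.071). Inpp5d, which encodes the lipid phosphatase SHIP1 that acts on the product of PI3K, averaged 8.44 with 4OHT and 7.63 with ethanol in Ik1ER cells and rose by 0.81 (SE 0.07, limma, adjusted p = 0.000964). Its 4OHT effect also differed between the lines (0.86, limma, adjusted p = 0.00958). Pik3r1, which encodes a regulatory subunit of PI3K, rose by 0.67 (SE 0.13, limma, adjusted p = 0.0222), and the inhibitor gene Pik3ip1 fell by 0.47 (SE 0.08, limma, adjusted p = 0.0162). The call of Pik3r1 was lost without Ik1ER 4OHT replicate 2 or Ik1ER ethanol replicate 1, and that of Pik3ip1 without either of these or Ik1ER ethanol replicate 2 (limma, adjusted p at most 0.105).

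Of 18 further genes known as FOXO targets 3 rose and none fell (median 0.23), against 2.84% of all genes called higher. Of the 18, 13 lay above 0, against 49% of all genes, in a list chosen with earlier results known. Ccng2, which encodes the inhibitory cyclin G2, rose by 0.66 (SE 0.12, limma, adjusted p = 0.0187), and the sestrin genes Sesn3 and Sesn1, which restrain mTORC1, by 0.66 and 0.48. Of the 8 fits with 1 array omitted, Ccng2 kept its call in 5, Sesn1 in 4 and Sesn3 in 2. All 3 calls were lost without Ik1ER ethanol replicate 1. The other 2 bright probe sets of Sesn1 differed by 0.16 and 0.25. Of 10 other forkhead genes none was called (median -0.056), and of 9 other KLF genes none (median -0.053). Klf3, which competes with other KLF factors at their sites, differed by -0.47 (limma, adjusted p = 0.0503) and Klf13 by 0.56 (limma, adjusted p = 0.0745), both picked out after their values were seen.

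Among 11 homing receptor and integrin genes 3 rose and 1 fell (median 0.43). Itgb2, which encodes the beta chain of LFA-1, averaged 10.03 with 4OHT and 9.02 with ethanol in Ik1ER cells and rose by 1.01 (SE 0.12, limma, adjusted p = 0.00317). Itgae and Itgb7, which together encode the integrin that binds E-cadherin, rose by 1.01 and 0.47, and Itgb1 fell by 0.48 (SE 0.11, limma, adjusted p = 0.0409). Itgae lost its call without Ik1ER ethanol replicate 2 (limma, adjusted p = 0.0669), Itgb7 in 3 of the 8 fits with 1 array omitted and Itgb1 in 6 (limma, adjusted p at most 0.163). The homing receptor genes Ccr9 (1.92, limma, adjusted p = 0.0882), Selplg (0.80, limma, adjusted p = 0.0533) and Ccr7 (0.27, limma, adjusted p = 0.403) were not called, and were chosen for mention after their values were seen.

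Of 9 genes of cell motility needed for egress 4 rose and none fell (median 0.35). Coro1a, which encodes the actin regulator coronin 1A, averaged 12.81 with 4OHT and 12.22 with ethanol in Ik1ER cells and rose by 0.59 (SE 0.11, limma, adjusted p = 0.0178). Its 2 other probe sets also rose, by 1.08 and 0.70 (limma, adjusted p = 0.0355 and 0.0145 over all probe sets). In this Coro1a was alone. Of the 17 called list genes 13 had other probe sets above background. These differed in the same direction for all 13, but all were called for only 1. Rhoh, a GTPase gene of blood cells, rose by 0.61, the kinase gene Stk17b by 0.55 and Stk4, which encodes the kinase MST1, by 0.42. Of the 8 fits with 1 array omitted, Stk17b kept its call in 6, Stk4 in 5, Coro1a in 4 and Rhoh in 3. All 4 calls were lost without Ik1ER ethanol replicate 1.

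Among 13 other genes of S1P transport and signalling 2 rose and none fell (median -0.022). Rac2, which encodes a GTPase of cell migration, rose by 0.75 (SE 0.10, limma, adjusted p = 0.00474). S1pr2, whose protein restrains migration in B cells, rose by 0.50 (SE 0.11, limma, adjusted p = 0.0469), a call kept only without Ik1ER 4OHT replicate 1, and without both replicate 2 arrays it was 0.26 (limma, adjusted p = 0.299). Of 10 genes of interleukin 7 receptor signalling only the feedback inhibitor gene Socs1 was called (0.63, SE 0.07, limma, adjusted p = 0.00295), and of 10 genes of CD44 partners and ligand enzymes none was called (median 0.088).

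**Figure D4:**
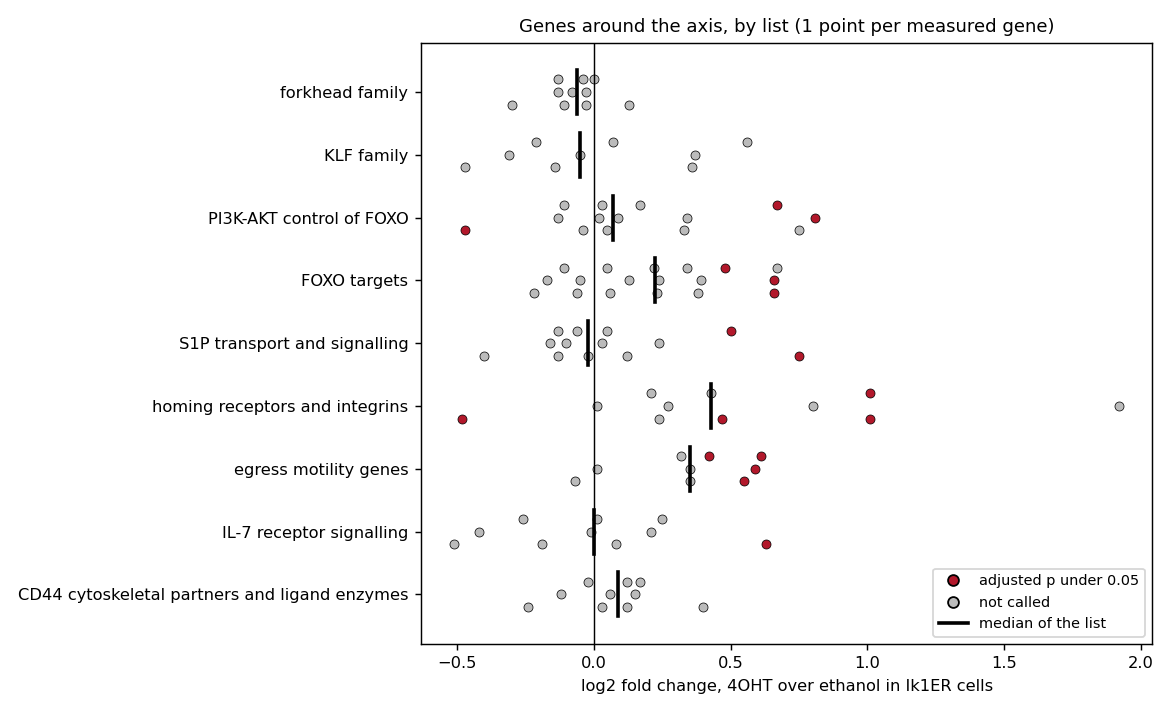
Log2 fold change of 4OHT over ethanol in Ik1ER cells for the 104 genes of the 9 lists, with 1 point per gene, red where called, and a black bar at the median of each list. The medians of the homing receptors and integrins (0.43), the motility genes (0.35) and the FOXO targets (0.23) lie above 0, and those of the forkhead, KLF and S1P lists lie slightly below it.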

How the data were processed

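Per the labels' protocols, labelled RNA was run on Affymetrix arrays. The deposited values are log2 expression, for which the submitters' processing notes name RMA without a version or build. RMA gives all arrays a like distribution and compresses changes of dim genes. No detection calls were used. Of 45101 probe sets 64 are controls, 34945 have 1 symbol and 932 have several. The probe set of highest mean stood for a gene, with _x_at probe sets used for want of any other, giving 18193 genes, and all 8 members were measured.

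Group means were fitted to 8 arrays with lmFit and eBayes of limma 3.58.1 (R 4.3.3, 4 residual degrees of freedom). P-values were adjusted over all genes by the method of Benjamini and Hochberg. The code was tested on simulated data. Errors are SD over 2 arrays or standard errors from limma. Of 110 list genes 104 were measured, and the others were not analysed here. The text names the members, the 3 genes nearest to Foxo1 and Klf2, and called genes of the lists, up to 4 each. The members and lists were chosen with earlier results of these data known. Alternatives were a replicate block, a filter on dim genes, trend and robust settings, repeated quantile normalization, centring on medians, other rules for probe sets, only the groups compared, a minimum fold change, and leaving out arrays.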

Additional observations from a re-analysis of the deposited data

How the results depend on the processing

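Of all genes 973 were called with 4OHT in Ik1ER cells. This became 1179 with dim genes left out, 412 with the 4 Ik1ER arrays alone and 153 with a log2 fold change of at least 1. Each fit with fewer arrays called fewer of all genes, so lower counts there are not particular to the members or lists. The count of members called with 4OHT in Ik1ER cells (3) was 1 with dim genes left out, when 4 of 8 members remained. It was 1 with the 4 Ik1ER arrays alone and 1 with a log2 fold change of at least 1. It ranged from 1 to 3 with each array left out, with 1 without Ik1ER ethanol replicate 1 or replicate 2. That for Ik1ER against MigR1 cells in 4OHT (4) was 1 with dim genes left out and 2 with the groups compared alone. It ranged from 1 to 4 with each array left out, with 2 without MigR1 4OHT replicate 1 and 1 without replicate 2. For the difference of the 4OHT effects (0) it was 2 with trend and robust settings, 1 with repeated quantile normalization, 2 with the mean over probe sets, and from 0 to 2 with each array left out. It stayed at 0 under the alternatives run for 4OHT in MigR1 cells and for the lines in ethanol. The causes were not tested, beyond the smaller number of members or arrays where these were left out. No called member changed direction under any alternative. With the replicate block the counts were 4 and 5, as Cd69 in Ik1ER cells and Il7r between the lines in 4OHT (adjusted p = 0.0498) were called too, and the block changed no other member's call. Same-numbered arrays deviated together in Ik1ER cells (r = 0.448 across genes) and MigR1 cells (0.269), but not across the lines (-0.069 to 0.102), and the labels give the number no meaning. Genes of the 9 lists called in Ik1ER cells numbered 6 without both replicate 2 arrays, where MigR1 arrays alone give the spread, against 17. Signals below the highest Bacillus control mean (S1pr1, Cd69 and Cd44) or near it (Klf2) limit what can be said of these genes.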
